A study of Homo sapiens with 22 samples.

Results

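RNA levels were compared between inhibition and mutation of KDAC6, that is, between HT1080 cells treated with Tubastatin A, a small-molecule inhibitor of the enzyme, and untreated HT1080 KDAC6H611A cells, in which the second catalytic domain of KDAC6 carries a point mutation. The 7 libraries chosen were the 3 of the inhibitor-treated cells and the 4 of the mutant line, of 22 in the whole series. No library of untreated wild-type (WT) cells entered this fit. HT1080 is a human fibrosarcoma line. The treated cells were genetically WT and received 1 µM Tubastatin A for 2 days before RNA was prepared, whereas the mutant cells received no inhibitor. KDAC6H611A was made by CRISPR editing, which replaced a catalytic histidine with alanine (H611A) in the endogenous gene, and was grown out from a single colony, so that the line is 1 genetic clone. Since both genotype and treatment differed between the groups, an effect of either one on a gene, and any trait that the clone acquired, cannot be told apart in this contrast. The 4 untreated WT libraries and the 3 libraries of WT cells treated with 5 µM PCI-34051 for 2 days, an inhibitor of KDAC8, are given beside the comparison, as levels and, for WT, in separate fits of each group against it.

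KDAC6, encoded by HDAC6, is a mostly cytoplasmic lysine deacetylase with a pair of catalytic domains and a zinc finger that binds ubiquitin. Its best known substrates are alpha-tubulin, cortactin and the chaperone HSP90, and it takes part in cell movement, the transport of misfolded protein to the aggresome and autophagy. Tubastatin A binds the zinc of the active site and leaves the protein in place, and the H611A change removes a catalytic histidine while the protein is still made. The mRNA level of HDAC6 therefore does not report on the activity of the enzyme in either group. The edited codon is shown to place the mutation in the gene. The histidine codon of H611A lies in exon 20 of the transcript ENST00000334136.11, in coding sequence on the plus strand at X:48817365-48817367 (GRCh38), within HDAC6 at X:48801377-48824982. The reference sequence of X:48817335-48817397, with the histidine codon in capitals, is given on the next line.
HDAC6 codon changed in H611A: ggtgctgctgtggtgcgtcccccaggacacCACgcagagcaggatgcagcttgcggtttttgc

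The libraries of the groups differed in depth and in rRNA content. Total counts were 28394225 to 29862665 with Tubastatin A and 7324519 to 12752463 in KDAC6H611A, a ratio of medians of 3.50. The mitochondrial rRNA genes took 0.00101, 0.00287 and 0.000564% of the counts with Tubastatin A, and 24.5, 37.98, 20.98 and 0.173% in KDAC6H611A, of which replicate 4 stood apart from the other three. The groups did not overlap (p = 0.0571, two-sided exact permutation test, which is the smallest p that 3 against 4 libraries allow). The share was 20.8 to 23.9% in WT and 0.000722 to 0.00541% with PCI-34051, so depth and rRNA content separated both inhibitor groups from WT and KDAC6H611A. A low share was not limited to treated cells. It was 0.00376 to 0.0259% in KDAC8H143A, an untreated line with mutated KDAC8. In KDAC6H216A, another untreated KDAC6 mutant line, it ran from 0.195 to 15.07%. The part of these library differences in the gene changes below was not tested. A principal component analysis placed the groups apart on the first component (72.0% of the variance), and KDAC6H611A replicate 2 apart from the other mutant libraries on the second (13.4%). VIM, the intermediate filament of mesenchymal cells, was at 3338 ± 43.7 CPM (counts scaled to a common library size, SD, n = 3) with Tubastatin A and 3029.6 ± 612 CPM (SD, n = 4) in KDAC6H611A. Of 10 HT1080 and mesenchymal markers, 2 were called higher (FN1 and CAV1), 2 lower (S100A4 and THY1) and 6 not called, VIM among them. Those shares of 20% each stood beside 17.7% and 17.2% of all genes tested. The sum over these 10 was 8098 to 8540 CPM with Tubastatin A and 4016 to 6293 CPM in KDAC6H611A, without overlap. A few genes weighed most in it. VIM and FN1 had the most counts with Tubastatin A (up to 112884 and 79477 in a library, not scaled for depth). In KDAC6H611A these were VIM and CD44 (up to 35193 and 11553), and FN1 reached 6470. Of the defining markers of other cell types, 7 of 10 epithelial and 5 of 7 blood markers were under 1 CPM in every library of each group, as were 7 of 7 endothelial and 6 of 7 neural markers with Tubastatin A and 5 of 7 and 4 of 7 in KDAC6H611A. Summed levels were 362 to 379 CPM with Tubastatin A and 221 to 386 CPM in KDAC6H611A for the epithelial list, where KRT8 and KRT18 made up most of the sum, 1.88 to 2.19 and 2.28 to 4.43 CPM for the endothelial, 83.98 to 88.4 and 67.5 to 103.4 CPM for the blood, and 8.899 to 9.44 and 2.74 to 5.81 CPM for the neural list. The groups overlapped for the epithelial and blood lists, and MAP2 led the neural list with Tubastatin A.

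A large part of the transcriptome differed. Of 16608 genes tested, 5797 passed an adjusted p of 0.01 in edgeR's quasi-likelihood test (34.9%). With Tubastatin A, 2945 genes were higher (17.7%) and 2852 lower (17.2%) than in KDAC6H611A, and 2858 of the called genes changed by over 1 on the log2 scale. Scaling to the total count alone, which the rRNA reads enter, moved this split to 3232 higher and 1283 lower and shifted the median over the genes tested from -0.04 to 0.27 on the log2 scale. Levels did not overlap between the libraries of the groups in 5770 of the called genes, and in 9303 of all 16608 genes tested. The study's methods call the libraries of a group biological replicates and do not say whether each came from a separate culture or treatment, so the p-values measure the spread between these libraries.

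**Figure D1:**
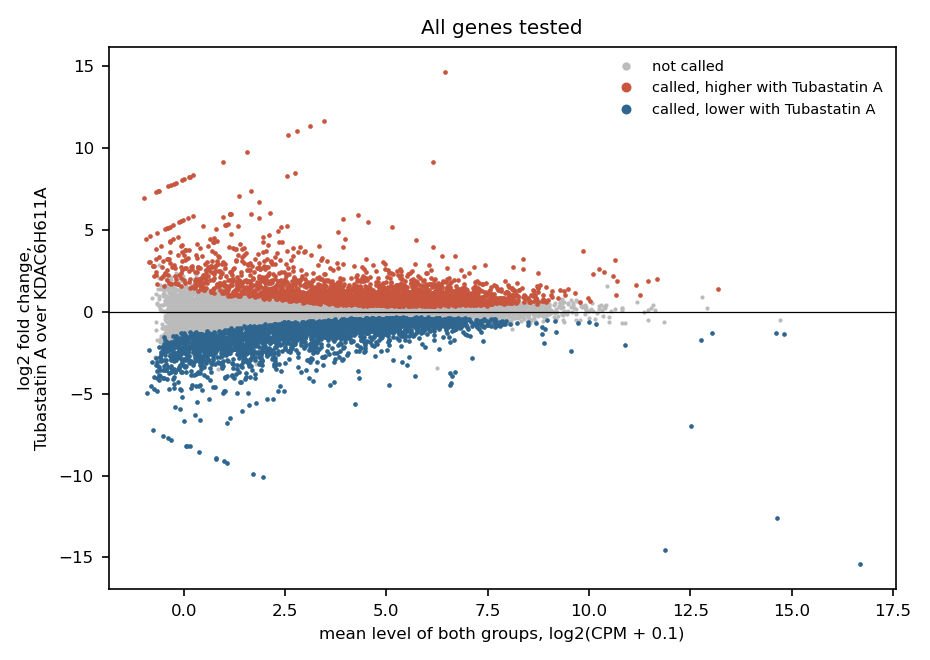
Log2 fold change of each gene tested, Tubastatin A over KDAC6H611A, against its mean level over both groups. Each point is a gene, and colour marks the 2945 genes called higher and the 2852 called lower. Called genes lie on both sides over the whole range of levels, and the point at the lower right with the highest level is the mitochondrial rRNA MT-RNR2.

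The largest rises were genes with almost no RNA in the mutant line. EPB41L3, which encodes a membrane-cytoskeleton linker of the protein 4.1 family, was at 178, 173 and 167 CPM with Tubastatin A and had no count in any of the 4 KDAC6H611A libraries. Its level was at least 327-fold higher with Tubastatin A, taking 3 counts in KDAC6H611A replicate 2, the mutant library with the smallest TMM-scaled size, as the floor (0.529 CPM) (adjusted p = 9.54e-08). WT libraries held 166 to 187 CPM, so the treated cells sat at the WT level and the mutant line stood apart. FLNC, which encodes the actin crosslinker filamin C, showed the same arrangement, at 141, 141 and 140.0 CPM with Tubastatin A, 0, 0.177, 0.351 and 0.346 CPM in KDAC6H611A and 128 to 154 CPM in WT (log2 fold change 9.15 ± 0.23 (SE), adjusted p = 1.01e-08).

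SERPINB5, which encodes the serpin maspin, read 21.3, 22.8 and 21.2 CPM with Tubastatin A and was at 0 in KDAC6H611A (at least 41.2-fold). CD9, a tetraspanin of the cell surface, read 5.79, 6.08 and 5.24 CPM against 0 in every mutant library (at least 10.8-fold). In WT their levels were 14.99 to 17.2 CPM and 5.72 to 7.98 CPM, and SERPINB5 was above WT with Tubastatin A by 0.36 on the log2 scale. BEX1, a small X-linked gene of the BEX family, had 1 count in 1 of the mutant libraries and 6.27, 6.29 and 5.63 CPM with Tubastatin A, a ratio of 201 (95% counting interval 35.97 to 7959). These genes were nearer to the WT level with the inhibitor than in the line, where they were at or near 0.

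Another set of large rises was higher with Tubastatin A than in WT as well. ADAMTS2, the procollagen N-proteinase, was at 15.9, 17.3 and 18.6 CPM with Tubastatin A, at 0 in KDAC6H611A (at least 32.6-fold) and at 0 to 1.69 CPM in WT. PDPN, which encodes the mucin-like membrane protein podoplanin, was at 13.6, 13.1 and 14.5 CPM against 0 (at least 26.02-fold), with 2.69 to 3.402 CPM in WT. PCI-34051 libraries averaged 17.8 CPM for ADAMTS2 and 16 CPM for PDPN, both near the Tubastatin A level. The same held for PLXDC2, a plexin-domain membrane protein, with 13.2, 12.3 and 13.9 CPM against a single count in the mutant line (ratio 435, 95% counting interval 77.9 to 17178) and a mean of 6.56 CPM in WT. EDNRA, the endothelin A receptor, read 13.1, 9.55 and 11.97 CPM and ENPP4, a membrane pyrophosphatase and phosphodiesterase, 6.78, 7.34 and 7.03 CPM. In the mutant libraries neither exceeded 0.177 CPM, and WT means were 7.66 and 3.12 CPM.

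Among the largest falls, 6 of 10 were genes raised in the line and low in every other group shown. PAGE2, an X-linked cancer-testis gene, was at 0.81, 0.553 and 0.853 CPM with Tubastatin A and 38.8, 25.3, 42.3 and 40.4 CPM in KDAC6H611A (log2 fold change -5.63 ± 0.24, adjusted p = 1.49e-07), against 0 to 0.961 CPM in WT. Its value is uncertain, since the PAGE genes include near-identical copies that share reads. MYEOV, a gene overexpressed in some myelomas, was at 2.82, 3.04 and 3.14 CPM against 39.2, 34.1, 35.3 and 36.3 CPM (log2 fold change -3.59 ± 0.12), with 2.31 to 4.47 CPM in WT. The neuronal adhesion and receptor genes SLITRK4 and NFASC read 0.12, 0.583 and 0.304 and 0.57, 0.399 and 0.274 CPM with Tubastatin A. They read 10.4, 7.07, 12.6 and 8.08 and 8.21, 10.96, 9.39 and 10.7 CPM in KDAC6H611A, in the order of the genes, and had WT means of 0.0643 and 0.271 CPM. AVPR2, the vasopressin V2 receptor, averaged 0.365 ± 0.0806 CPM against 10.6 ± 3.06 CPM, and ZNF726, a zinc finger gene, 0.436 ± 0.154 CPM against 6.12 ± 1.83 CPM (SD, n = 3 and 4).

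The remaining 4 of the 10 were at the WT level in the line and low with the inhibitor. FRMPD1, a FERM and PDZ domain gene, was at 0.87, 1.197 and 0.792 CPM with Tubastatin A, 15.6, 23.3, 8.08 and 16.4 CPM in KDAC6H611A and 12.2 to 13.2 CPM in WT, and averaged 1.66 CPM with PCI-34051. MAB21L3 behaved alike, at 0.33, 0.154 and 0.396 CPM against 5.52, 7.78, 2.897 and 4.5 CPM, with 2.72 to 5.96 CPM in WT. C7orf55-LUC7L2 fell by 4.28 ± 0.27 on the log2 scale, but it is a read-through of neighbouring genes whose reads cannot be assigned with certainty. RP11-977G19.10 was at 0.33, 0 and 0.0609 CPM against 4.17, 7.07, 4.21 and 10.7 CPM, and at a WT mean of 4.98 CPM.

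**Figure D2:**
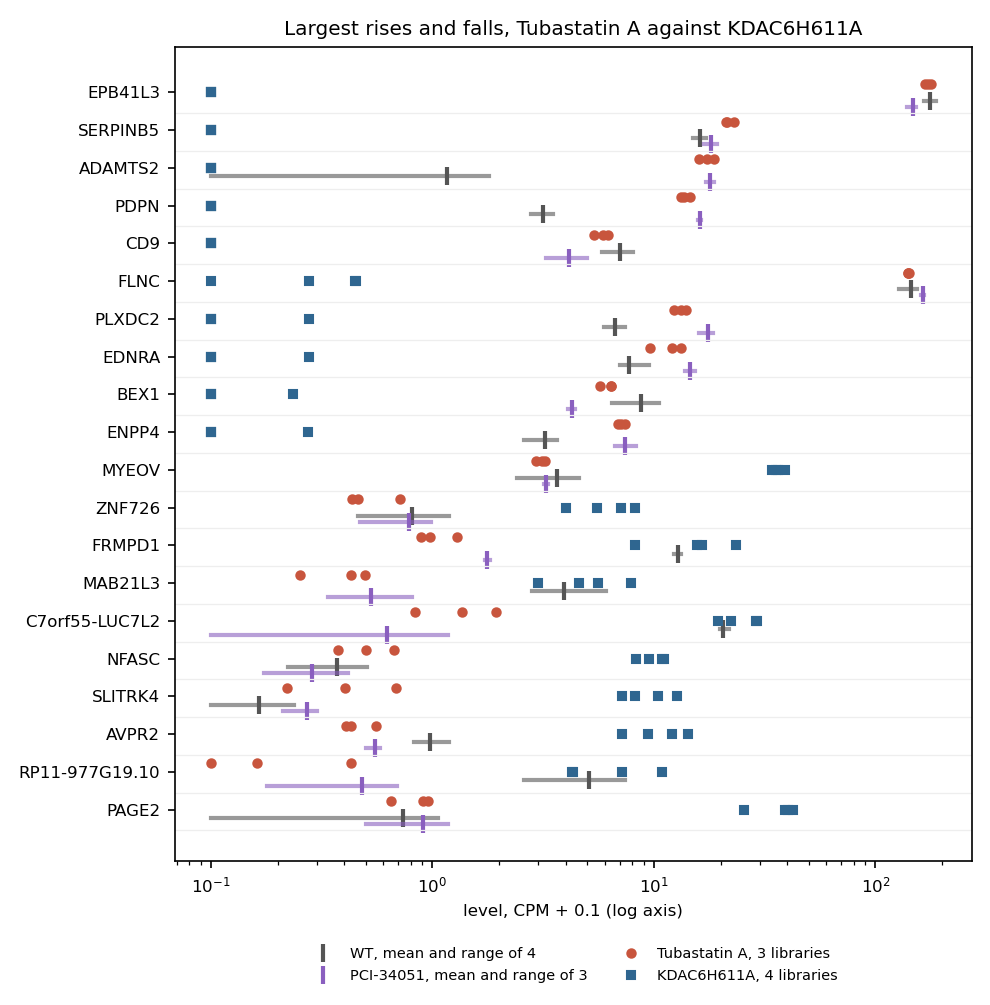
Levels of the 10 largest rises and 10 largest falls in each library, as CPM + 0.1 on a log axis. Circles are the 3 Tubastatin A libraries and squares the 4 KDAC6H611A libraries (values that coincide overlap), and bars with a tick are the range and mean of the 4 WT and 3 PCI-34051 libraries on the scale of all 22 libraries. KDAC6H611A stands alone at the left for the upper genes, such as EPB41L3 at 0 CPM, and alone at the right for MYEOV and PAGE2.

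Placing each called gene by its WT level divided the comparison unevenly. Distances from WT were taken between group means of log2(CPM + 0.5) over all 22 libraries on one scale. Compared with the 7-library scale of the calls, levels there were 1.14 to 1.15 times as high with Tubastatin A. In KDAC6H611A they were 0.88 to 1.03 times as high. Tubastatin A thus sat higher against the mutant line than in the calls. The counts below depend on that scale and were not computed on another. Of the 2945 genes higher with Tubastatin A, the WT mean lay nearer to KDAC6H611A for 2293 (77.9%) and nearer to Tubastatin A for 652. For the 2852 lower genes the WT mean lay nearer to the mutant line for 1577 (55.3%) and nearer to the treated cells for 1275. The mean of the PCI-34051 libraries lay nearer to Tubastatin A than to KDAC6H611A for 98.1% of the higher and 92.3% of the lower genes. Among the 10 largest rises the WT mean lay nearer to Tubastatin A for 9, with KDAC6H611A at or near 0. Of these 10, ADAMTS2, PDPN, PLXDC2, EDNRA, ENPP4 and, by less, SERPINB5 were also above WT with Tubastatin A. The inhibitor libraries also shared their depth and their lack of mitochondrial rRNA, and these properties and the treatments cannot be told apart.

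Of 17 deacetylase genes tested, 4 rose with Tubastatin A (23.5%) and 1 fell (5.88%), with a median log2 fold change of 0.10. Over all genes tested 17.7% were higher and 17.2% lower. Of the 13099 protein-coding genes 21.5% were higher and 15.1% lower (median 0.06), and these shares stand beside each list of protein-coding genes below. HDAC6 read 17.4, 17.8 and 17.7 CPM with Tubastatin A and 14.1, 13.1, 10.2 and 15.8 CPM in KDAC6H611A. The libraries did not overlap, but the difference missed the threshold (log2 fold change 0.42 ± 0.14, adjusted p = 0.0324), and WT ranged from 9.03 to 16.4 CPM. HDAC6 was called higher with a correction for GC content and length, with all 6 groups in one fit, and without a filter on low counts. HDAC8 read 11.3, 12.6 and 12.6 CPM against 11.98, 16.3, 12.03 and 10.3 CPM, which overlapped (log2 fold change -0.04 ± 0.15, adjusted p = 0.84).

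HDAC4, a class IIa enzyme that moves between nucleus and cytoplasm, showed the largest rise of the family, at 34.1, 32.1 and 31.5 CPM against 16.6, 17.1, 12.1 and 15.6 CPM (log2 fold change 1.099 ± 0.12, adjusted p = 6.67e-05). The mutant line was at the WT mean of 15.04 CPM. HDAC9, another class IIa member, was also higher with Tubastatin A, at 43.8, 46.1 and 40.5 CPM against 25.6, 29.7, 27.7 and 24.2 CPM (log2 fold change 0.699 ± 0.10). Here the treated cells, not the mutant line, were nearer to the WT mean of 49.2 CPM. The class I enzyme HDAC2 rose by 0.86 and HDAC1 by 0.44, and SIRT2, the sirtuin that also deacetylates tubulin, fell by 0.56 on the log2 scale. HDAC2 lost its call after the correction for GC content and length. Among 20 lysine acetyltransferase genes 4 rose (20%) and 5 fell (25%), beside 21.5% and 15.1% of protein-coding genes. Their median log2 fold change was -0.17, but 0.15 when scaled to the total count alone. EP300, the p300 coactivator, rose by 0.86, to 108 ± 3.29 CPM from 59.3 ± 4.03 CPM, which was below its WT mean of 108 CPM. KAT2A and KAT2B, the paired GCN5 and PCAF enzymes, fell by 0.68 and 0.65.

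Of 26 genes of known KDAC6 substrates and partners, 3 were higher (11.5%) and 5 lower (19.2%), beside 17.7% and 17.2% of all genes, with a median of 0.04. CTTN, which encodes cortactin, was at 205, 202 and 203 CPM with Tubastatin A and 237, 275, 232 and 272 CPM in KDAC6H611A, and HSP90AA1 at 1027 ± 10.2 CPM against 803 ± 179 CPM. Neither passed the threshold (adjusted p = 0.0341 and 0.128), although CTTN was called lower by DESeq2 and with upper quartile normalization. DYNC1I2, an intermediate chain of the dynein motor, rose by 0.73, and CYLD, a deubiquitinase that binds microtubules, by 0.71. TPPP, a tubulin polymerization protein, and PRDX2, a peroxiredoxin that KDAC6 deacetylates, fell by 0.82 and 0.63. DYNC1I2 and PRDX2 lost their calls after a correction for GC content and length.

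Of 19 tubulin genes TUBA4A alone was called, and 4 were higher and 2 lower at an unadjusted p under 0.05. It read 63.8, 60.6 and 65.5 CPM with Tubastatin A and 32.6, 25.5, 38.3 and 39 CPM in KDAC6H611A (log2 fold change 0.89 ± 0.13, adjusted p = 0.000354). The abundant alpha-tubulins did not pass: TUBA1B read 999.9, 994 and 1014 CPM against 828, 516, 1004 and 758 CPM, in which replicate 2 was the lowest, with adjusted p = 0.147. TUBA1A and TUBA1C had log2 fold changes of 0.49 and 0.41 (adjusted p = 0.034 and 0.0865). Tubulin genes are similar in sequence, so reads may be split among them. ATAT1, the alpha-tubulin acetyltransferase, read 6.87, 5.99 and 7.34 CPM against 5.92, 11.5, 5.97 and 6.35 CPM and overlapped (adjusted p = 0.717).

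Microtubule-associated proteins and the actin cytoskeleton leaned towards the inhibitor. Of 38 microtubule-associated genes 13 were higher (34.2%) and 3 lower (7.89%). Their median was 0.41, and 0.22 after the correction for GC content and length. The microtubule stabilizer MAP2, which also marks neurons, rose to 8.01, 8.44 and 8.01 CPM from 0.942, 1.24, 0.966 and 1.27 CPM, with WT at 1.12 CPM. STMN3, a stathmin, MAPRE2, an end-binding protein, and TTLL7, a tubulin polyglutamylase, rose by 2.09, 1.61 and 1.301. Of 61 filamin and actin-binding genes 28 were higher (45.9%) and 3 lower (4.92%), with a median of 0.61 beside -0.04 over all genes tested. After that correction these medians were 0.51 and -0.07. MYH10, a nonmuscle myosin heavy chain, read 45.8, 44.3 and 44.4 CPM against 6.46, 6.72, 6.23 and 5.65 CPM, with 67.8 to 84.99 CPM in WT. CALD1, which encodes caldesmon, read 255, 247 and 257 CPM against 66.9, 69.6, 79.5 and 89.4 CPM, with 92.03 to 111 CPM in WT. For MYH10 the treated cells were nearer to WT, and for CALD1 the mutant line was. ACTB, among the most abundant called genes, read 3361, 3189 and 3273 CPM against 1557, 1125, 1668 and 2098 CPM.

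Integrins, the receptors that join the cell to the extracellular matrix, were higher with Tubastatin A for 10 of 18 genes (55.6%). Another 3 (16.7%) were lower, and the median was 0.88, beside 21.5% higher and 15.1% lower of protein-coding genes. For all 10 of the higher genes the WT level lay nearer to KDAC6H611A. ITGB3, the beta subunit of the vitronectin receptor, read 104, 102 and 100.4 CPM with Tubastatin A and 5.25, 1.94, 6.76 and 4.61 CPM in KDAC6H611A (log2 fold change 4.38 ± 0.22, adjusted p = 3.82e-07), against 9.19 CPM in WT and 137 CPM with PCI-34051. ITGA4 read 91.02, 87.3 and 90.6 CPM against 18.8, 13.8, 22.8 and 21.6 CPM, and the collagen receptor subunits ITGA11 and ITGA1 rose by 2.0 and 1.92. The called falls were ITGB2, ITGAX and ITGA10, of which ITGB2 and ITGAX encode leukocyte subunits (log2 fold change -1.54, -1.04 and -0.71). Among 45 genes of cadherins and cell-cell adhesion 17 were higher (37.8%) and 10 lower (22.2%), both above the shares of protein-coding genes. The desmosomal cadherin DSC2 rose by 3.57, from 0.453 ± 0.184 to 5.15 ± 0.82 CPM, and the neuronal cell adhesion gene NRCAM fell by 2.56, from 20.2 ± 3.59 to 3.43 ± 0.565 CPM. PCDH20 and PCDH18 also rose, at under 3 CPM in every library.

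Collagen genes changed in both directions, 7 higher (29.2%) and 9 lower (37.5%) of 24, beside 21.5% and 15.1% of protein-coding genes. COL6A3, a chain of the microfibrillar collagen VI and one of the most abundant called genes, read 5321, 5166 and 5197 CPM with Tubastatin A and 1270.0, 1001, 1497 and 1417 CPM in KDAC6H611A (log2 fold change 2.01 ± 0.19, adjusted p = 2.18e-05). WT lay between, at 1769 to 2135 CPM. COL1A2, a chain of fibrillar collagen I, averaged 3.69 ± 0.692 CPM against 2 counts in the 4 mutant libraries together (ratio 61.3, 95% counting interval 16.8 to 508). COL17A1 and COL4A6, of hemidesmosomes and basement membranes, were lower with Tubastatin A, at 7.07 ± 0.407 and 1.41 ± 0.311 CPM against 36.97 ± 2.65 and 8.34 ± 1.25 CPM.

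Of 32 matrix proteases and their inhibitors 16 were higher (50%) and 6 lower (18.75%), beside 21.5% and 15.1% of protein-coding genes. TIMP3, an inhibitor of metalloproteinases, was at 55.5, 51.9 and 54.9 CPM against 5.25, 4.24, 8.17 and 7.73 CPM (log2 fold change 3.04 ± 0.17). MMP9, the gelatinase, ran the other way at 0.39, 0.798 and 0.274 CPM against 4.04, 4.596, 6.58 and 7.73 CPM, as did ADAMTS9 at 1.35, 1.81 and 1.13 CPM against 7.67, 14.1, 9.22 and 10.96 CPM. In WT, MMP9 and ADAMTS9 averaged 1.06 and 2.64 CPM, closer to the treated cells. Among 31 angiogenesis factors 17 were higher (54.8%) and 5 lower (16.1%), with a median of 0.83. CXCL8, the chemokine interleukin 8, read 29.5, 32.7 and 27.7 CPM against 0.269, 0.354, 0.615 and 0.923 CPM (log2 fold change 5.699 ± 0.22, adjusted p = 1.11e-07), with 12.5 CPM in WT between them. The secreted angiogenesis inhibitor THBS1 read 732, 686 and 733 CPM against 126, 102, 184 and 153 CPM, with 353 to 399.8 CPM in WT. EPAS1, the hypoxia-inducible factor HIF-2 alpha, and PDGFRB, a platelet-derived growth factor receptor, rose by 1.97 and 1.73.

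Among the lists with 10 or more tested members, cholesterol and fatty acid synthesis had the lowest median. Of 36 tested, 20 were lower with Tubastatin A and 3 higher, with a median log2 fold change of -0.64 beside -0.04 over all genes tested and 17.2% of all genes lower. LSS, the lanosterol synthase, read 24.4, 24.2 and 24.8 CPM with Tubastatin A and 85.7, 84.8, 98.9 and 106 CPM in KDAC6H611A (log2 fold change -1.94 ± 0.11, adjusted p = 9.70e-07). SCD, the stearoyl-CoA desaturase, read 205, 202 and 195 CPM against 829.9, 533, 942 and 709.9 CPM (log2 fold change -1.91 ± 0.19). No library of the groups overlapped for either gene, and their WT means were 94.9 and 554 CPM. INSIG1, which retains the SREBP complex in the endoplasmic reticulum, fell by 1.71, and SREBF1, a transcription factor of the pathway, by 1.52. For 18 of the 20 the WT mean lay nearer to the mutant line. The list median was below 0 under each scaling, including -0.34 when scaled to the total count alone.

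**Figure D3:**
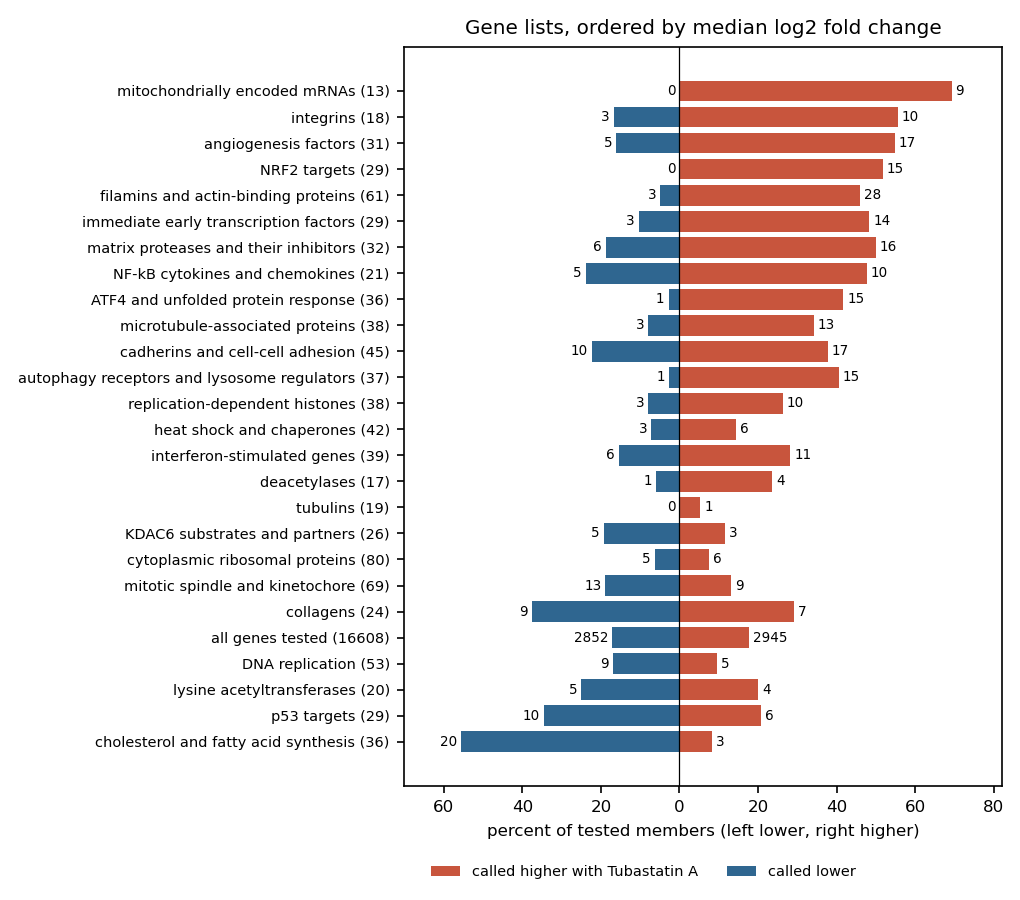
Share of the tested members of each gene list called higher (right) or lower (left) with Tubastatin A, with the number of genes at the end of each bar and the number tested in parentheses. Lists with 10 or more tested members are drawn, in the order of their median log2 fold change. Cholesterol and fatty acid synthesis lies at the bottom with 20 lower and 3 higher, and NRF2 targets and mitochondrially encoded mRNAs have none lower.

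Of 36 genes of the ATF4 pathway and the unfolded protein response 15 rose with Tubastatin A (41.7%), 1 fell and 20 were not called. HSPA5, the endoplasmic reticulum chaperone BiP, read 639, 619.8 and 633 CPM with Tubastatin A against 206, 159, 247 and 295 CPM in KDAC6H611A (log2 fold change 1.47 ± 0.18, adjusted p = 0.000121), and WT ranged from 207 to 229 CPM, as in the mutant line. CEBPB, a leucine zipper transcription factor, and STC2, a secreted stanniocalcin, rose by 1.97 and 1.57. Of 42 heat shock and chaperone genes 6 rose (14.3%, below the 17.7% of all genes), 3 fell and 33 were not called, and the endoplasmic reticulum members HSPA5, HSPA13 and HSP90B1 (log2 fold change 1.47, 1.39 and 0.901) made up 3 of the 6, beside the cytosolic co-chaperone DNAJB4 (1.01). HSF1, the master factor of the cytosolic heat shock response, was lower by 0.52.

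Of 29 target genes of NRF2, the factor of the antioxidant response, 15 rose (median 0.80, beside 17.7% of all genes higher). The edgeR test called 0 of them lower at an adjusted p of 0.01, as did DESeq2, and 1 was lower at an unadjusted p under 0.05. NQO1, a quinone reductase, read 142.5, 156 and 152 CPM against 40.9, 31.3, 52.6 and 47.5 CPM (log2 fold change 1.79 ± 0.15, adjusted p = 1.04e-05), and the cystine transporter SLC7A11 303, 319 and 314 CPM against 128, 109, 152 and 113 CPM. The aldo-keto reductases AKR1C1, AKR1C2 and AKR1C3 had the largest log2 fold changes of the list, at 2.78, 3.21 and 3.08, but they are close in sequence and under 10 CPM. Metallothioneins, which bind zinc and copper, and the zinc exporter SLC30A1 were higher in 4 of 5 genes tested, with MT1X at 21.2, 19.2 and 19.1 CPM against 6.59, 4.596, 6.41 and 8.08 CPM and MT2A at 397 ± 21.5 CPM against 148 ± 24.3 CPM. The mutant libraries lay at the WT level for NQO1 (46.5 CPM) and MT1X (5.74 CPM).

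Of 37 genes of autophagy receptors and lysosome regulators 15 rose (40.5%, beside 21.5% of protein-coding genes) and 1, the E1-like enzyme ATG7, fell by 0.79. GABARAPL1, an ATG8 family protein, read 20.6, 20.8 and 21.3 CPM against 7.67, 5.48, 7.46 and 7.15 CPM, and the lysosomal membrane genes LAMP1 and LAMP2 rose by 1.07 and 1.33. The autophagy kinase gene ULK2 was low in the mutant line alone among these groups, at 0.404, 0.354, 0.79 and 0.577 CPM, against 6.602, 7 and 8.62 CPM with Tubastatin A and 5.72 to 8.89 CPM in WT.

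**Figure D4:**
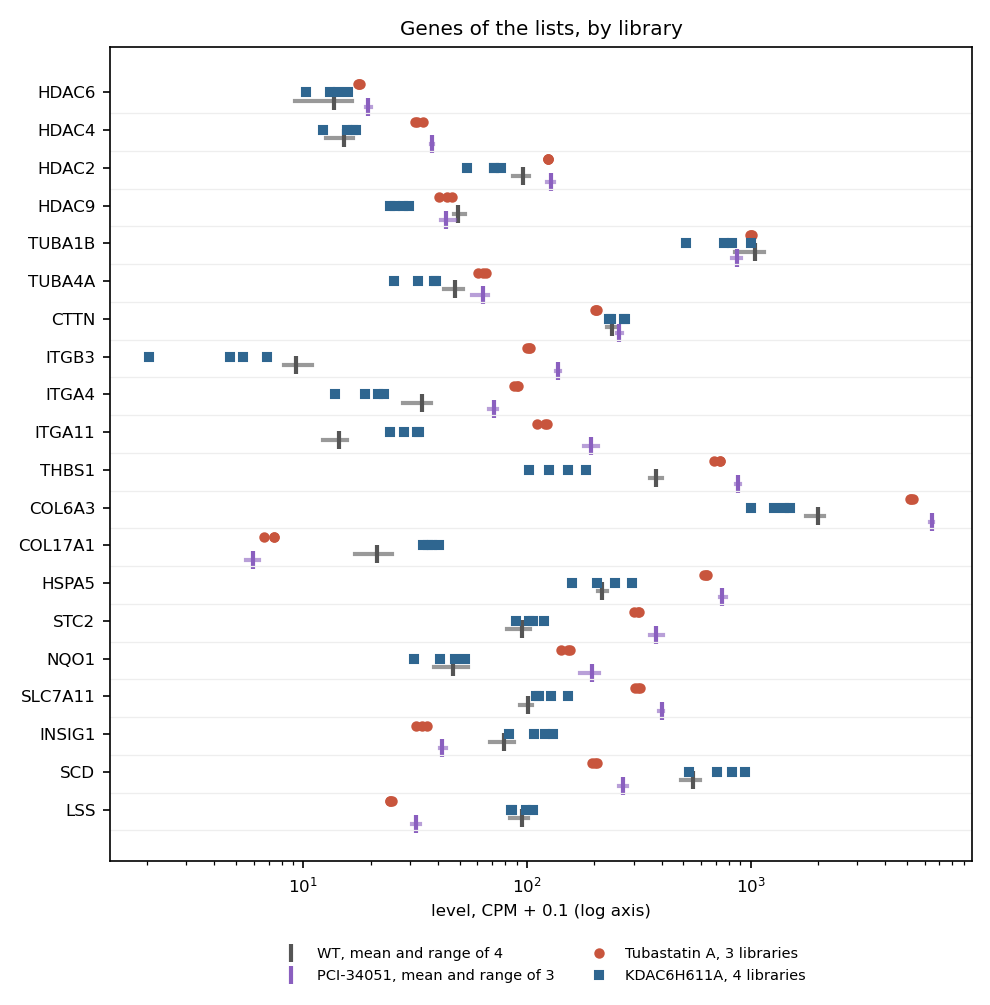
Levels of 20 genes from the lists in each library, as CPM + 0.1 on a log axis, with circles for the 3 Tubastatin A libraries, squares for the 4 KDAC6H611A libraries, and bars with a tick for the range and mean of the 4 WT and 3 PCI-34051 libraries on the scale of all 22 libraries. HDAC6, TUBA1B and CTTN lie close together in the groups, ITGB3 and COL6A3 are higher with both inhibitors, and INSIG1, SCD and LSS are lower with both.

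Immediate early transcription factor genes, which respond within minutes to growth factors and stress, were higher for 14 of 29 (48.3%) and lower for 3 (10.3%). EGR1 read 12.1, 9.95 and 11.4 CPM against 1.35, 1.59, 1.23 and 0.808 CPM (log2 fold change 3.19 ± 0.21, adjusted p = 2.47e-06), and KLF2 40.1, 37.4 and 39.2 CPM against 10.8, 9.37, 7.99 and 7.38 CPM. NR4A3 and FOSB rose at levels under 4 CPM. Of 21 NF-kB cytokines and chemokines 10 were higher (47.6%) and 5 lower (23.8%). Beside CXCL8, PTGS2, the inducible cyclooxygenase, was at 19.5, 19.96 and 22.4 CPM against 2.15, 1.59, 3.25 and 2.31 CPM. The chemokine CCL5 was at 0.99, 1.32 and 1.37 CPM against 6.73, 10.96, 3.42 and 8.19 CPM. The interferon-stimulated genes split, with 11 of 39 higher (28.2%) and 6 lower (15.4%), beside 21.5% and 15.1% of protein-coding genes. Among the higher were GBP2 (1.91) and BST2 (2.34, at under 2 CPM), and among the lower HERC5 (-1.67) and IRF7 (-1.57). Targets of p53 were higher for 6 of 29 (20.7%) and lower for 10 (34.5%). GADD45A and GADD45B, growth arrest genes, rose by 1.03 and 1.203, SPATA18, a mitophagy gene, by 2.69, and the oxidoreductase TP53I3 fell by 1.18.

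Of 69 mitotic spindle and kinetochore genes 9 were higher (13.04%) and 13 lower (18.8%), beside the 17.7% and 17.2% of all genes. ESPL1, which encodes separase, read 19.96, 23.5 and 23.8 CPM against 42.5, 44.2, 38.98 and 48.2 CPM, and CKS2 and HMMR had log2 fold changes of -0.796 and 0.76. CENPH, of the inner kinetochore, rose by 0.93. Of 53 DNA replication genes 5 were higher (9.43%) and 9 lower (16.98%). ORC1, of the origin recognition complex, read 10.9, 11.7 and 10.7 CPM against 23.3, 21.4, 31.5 and 26.7 CPM, and CHAF1A, POLE and FEN1, of chromatin assembly, leading-strand synthesis and flap removal, fell by 0.80, 0.78 and 0.69, of which FEN1 was not called under 13 of its alternatives. Their WT means were 24.5, 60.4, 113 and 120.0 CPM, nearer to the mutant line than to the treated cells. Replication-dependent histone genes were higher for 10 of 38 (26.3%) and lower for 3 (7.89%). HIST1H4H and HIST1H4C, of histone H4, rose by 1.3 and 1.098 and HIST1H3A by 1.05, whereas HIST1H2BK, of histone H2B, fell by 1.59. Histone genes are near-identical within a family, so reads may be split among them.

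Of 80 cytoplasmic ribosomal protein genes 6 were higher, 5 lower and 69 not called (median 0.03), and RPS16 was the largest change at 476, 438 and 463 CPM against 104, 115, 117 and 201 CPM, followed by RPL28 (1.47), RPS27 (-1.37) and RPL38 (-1.06). Of 13 mitochondrially encoded mRNAs 9 were higher in the edgeR test (median 1.77). None was lower, with 0 also at an unadjusted p under 0.05 and by DESeq2, which called 8 higher. MT-CO1, a subunit of cytochrome c oxidase, read 14335, 13730.2 and 12338 CPM with Tubastatin A and 4936, 8988, 3983 and 2933 CPM in KDAC6H611A (adjusted p = 0.00804). MT-ND4 and MT-ND5 passed with adjusted p = 0.00887 and 0.00658. MT-ND6, MT-ND2, MT-ND1 and MT-CO2 had log2 fold changes of 3.25, 3.14, 2.29 and 2.16. The mitochondrial rRNAs fell, with MT-RNR2 at 3.78, 7.98 and 2.53 CPM against 218147, 423688, 199646 and 1285 CPM and MT-RNR1 at 5.28, 17.1 and 2.37 CPM against 58597, 109069, 35286 and 180.4 CPM. The rRNA share was also near 0 with PCI-34051 and in the untreated KDAC8H143A line, and at 20.8 to 23.9% in WT. The effect of Tubastatin A on these RNAs and the properties of the libraries therefore cannot be told apart.

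The differences were unevenly spread over the chromosomes. Across chromosomes 1 to 22 and X the median log2 fold change of protein-coding genes lay between -0.16 and 0.33 on all but chromosomes 13 and 18. On chromosome 13, 135 of 229 genes were higher with Tubastatin A and 3 lower (median 0.66), and on chromosome 18, 126 of 187 were higher and 10 lower (median 0.86). Correcting for GC content and length left medians of 0.45 and 0.71. Beside WT, the medians on chromosome 18 were -0.83 in KDAC6H611A and -0.05 with Tubastatin A, and those on chromosome 13 were -0.47 and 0.19.

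Chromosomes 2, 3 and 7 changed along their length. Positions are of gene starts in GRCh38. On chromosome 7 the 209 genes before 60 Mb had a median of 0.53, with 103 higher and 11 lower, and the 416 genes after it a median of -0.29, with 44 higher and 141 lower. On chromosome 2 the median was 0.14 for 406 genes before 105 Mb and 0.50 for 459 genes after it, with 224 higher and 13 lower in the later part. On chromosome 3 it was -0.37 for 359 genes before 75 Mb, with 28 higher and 134 lower, and 0.23 for 397 genes after it. In stretches of 15 Mb the change was abrupt on chromosome 7, from 0.52 for 45 to 60 Mb to -0.54 for 60 to 75 Mb. Many of the genes described above lie in these parts or on chromosomes 13 and 18. EPB41L3, SERPINB5, DSC2 and MAPRE2 lie on chromosome 18 and PCDH20 on chromosome 13. COL6A3, HDAC4, MAP2 and TUBA4A lie in the later part of chromosome 2, KAT2B in the first part of chromosome 3, and ACTB and HDAC9 in the first part of chromosome 7. FLNC, CALD1 and NRCAM lie in the later part of chromosome 7, where FLNC and CALD1 rose against the median of -0.29 and NRCAM fell.

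Set beside WT, these parts stood out in KDAC6H611A, with smaller departures for Tubastatin A. The fit of KDAC6H611A against WT uses the same 4 mutant libraries, so it is not independent of the contrast above. The median log2 fold change of KDAC6H611A from WT was -0.43 on the first and 0.33 on the later part of chromosome 7, -0.43 on the later part of chromosome 2 and 0.34 on the first part of chromosome 3. That of Tubastatin A from WT on these parts was 0.12, 0.03, 0.11 and 0.03. All 4 mutant libraries lay on one side of all 3 treated libraries in each part. Scaled to the total count alone, the medians of the falling parts became 0.03 on chromosome 7 and -0.05 on chromosome 3, still below the 0.27 of all genes. Together the 6 parts held 972 of the 4794 called protein-coding genes, 52.3% of the 1859 tested there, beside 34.0% of the 11240 tested elsewhere. Among the stretches of 15 Mb on the other chromosomes, 3 departed from WT by over 0.3 in the mutant line, at 135 to 150 Mb of chromosome 8 (0.42) and at 0 to 30 Mb of chromosome 20 (-0.35 and -0.42). The parts were chosen after the values were seen, and copy number of DNA was not measured.

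**Figure D5:**
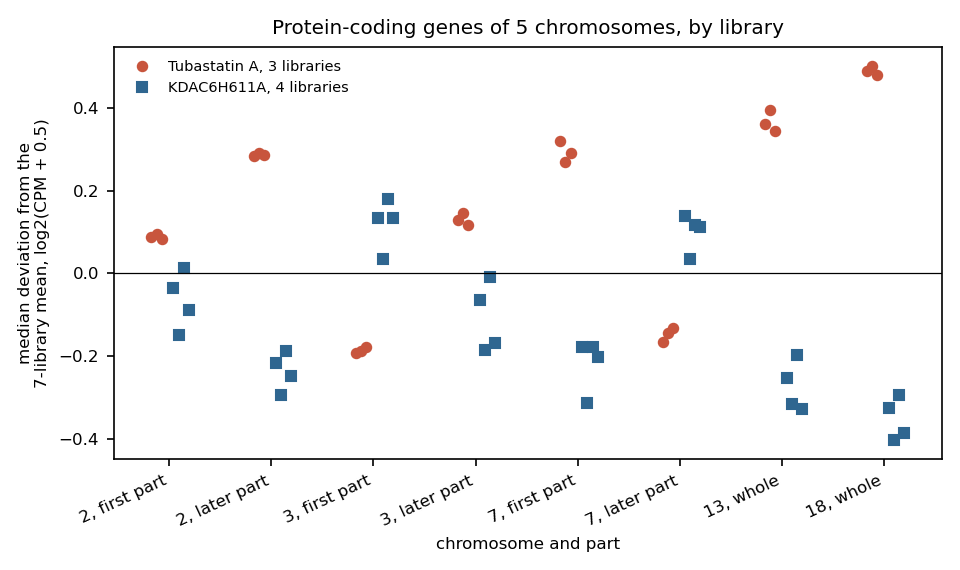
Median deviation of protein-coding genes from their mean over the 7 libraries, in log2(CPM + 0.5), for parts of 5 chromosomes. Each circle is a Tubastatin A library and each square a KDAC6H611A library, and the first and later parts meet at 105 Mb on chromosome 2, 75 Mb on chromosome 3 and 60 Mb on chromosome 7. The groups separate in opposite directions on the first and later parts of chromosomes 3 and 7, and lie farthest apart on chromosome 18.

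Base composition differed between the genes called in each direction. The median GC content of the longest transcript was 43.4% for 2815 protein-coding genes higher with Tubastatin A, 53.7% for 1979 lower genes and 47.8% for 8305 that were not called. A smooth correction for GC content and length left 5433 genes called, 2609 higher and 2824 lower, and 4503 of the 5797 genes were called in the same direction in both fits. The part of base composition in the changes was not tested.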

How the data were processed

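RNA was depleted of rRNA and sequenced as paired ends. The authors trimmed reads with Trimmomatic 0.39, aligned them to GRCh38 with Bowtie2 2.4.5 and counted them with RSEM 1.3.3, per the submitters' processing notes. The annotation release is not given in the sources used here. The deposited table holds RSEM expected counts for 60675 genes, not scaled for depth or length. They were rounded to whole numbers, and 0 columns were left unused. Tubastatin A was compared with KDAC6H611A in edgeR 4.0.16 (R 4.3.3; TMM, filterByExpr by group, glmQLFit and glmQLFTest) with Benjamini-Hochberg adjustment at 0.01, the threshold of the study's methods. Log2 fold changes are Tubastatin A minus KDAC6H611A, and the SE is the fold change over the square root of F. CPM values of the 2 groups use the TMM scale of these 7 libraries, and those of WT and PCI-34051 the scale of all 22, on which levels were 1.14 to 1.15 times as high with Tubastatin A and 0.88 to 1.03 times as high in KDAC6H611A. Each group was also fitted against WT in the same way, for the medians by chromosome. Counting intervals and floors (3 counts) cover counting error only.

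Gene lists were described by counts called and medians, without a test of the list. The groups, the lists and the comparison were chosen with earlier results of these data known. Named genes were the 10 largest rises and falls among called protein-coding genes that reached a mean of 5 CPM in either group and whose libraries did not overlap, up to 4 called members of largest change per list with HDAC6, HDAC8 and other KDAC6-related genes, and the 5 most abundant called protein-coding genes. Y-linked genes were left out of the largest rises and falls. Others named from the lists were chosen after their values were seen, as were the chromosome parts. Some genes that this rule selects are not reported here. Positions, transcript length and GC content came from GENCODE 44, which matched 56558 genes. Scripts were checked on simulated counts in which 200 genes had known changes. Alternatives were run with DESeq2 1.42.0, mgcv 1.9.3 and edgeR, and summaries and plots with scipy 1.17.1, pandas 2.3.3 and matplotlib 3.10.9 in python 3.11.15.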

Additional observations from a re-analysis of the deposited data

Results flagged for a closer look

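A library far from the others of its group, by Dixon's test at the 95% level, was found in 10 of 153 groups of 4 libraries examined, and chance flags about 1 in 20. In KDAC6H611A the gap of the outlying library to its neighbour was 0.924 of the range for ATAT1 and 0.861 for TTLL7, where replicate 2 was highest (11.5 and 9.90 CPM against medians of 6.16 and 5.97 CPM). It was 0.963 for GADD45A and 0.872 for RPS16, where replicate 4 was highest (39.9 and 201.3 CPM against medians of 25.6 and 115.5 CPM), and 0.857 for FOSB, where replicate 2 was at 0. It was 1 for PLXDC2, EDNRA, BEX1, ENPP4 and COL1A2, each with 1 or 2 counts in 1 library and none in the rest. Without replicate 2 of KDAC6H611A the difference in ATAT1 changed sign and was still not called.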

How the results depend on the processing

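The count of 5797 genes changed ran from 3493 to 7611 when 1 library was left out, with 3517, 3503 and 3493 without Tubastatin A replicate 1, 2 and 3 and 7611 without KDAC6H611A replicate 2. Higher genes ran from 1960 to 4056 and lower genes from 1533 to 3555. A minimum log2 fold change of 1 left 2858 genes, 1251 higher and 1607 lower, an adjusted p of 0.05 gave 4337 lower genes, and scaling to the total count alone 1283 lower genes. Upper quartile normalization gave 2478 higher and 3407 lower and shifted the median of all genes to -0.14. The difference in mitochondrial rRNA share, -20.9 percentage points, ran from -27.8 to -15.2 without 1 library. Replicate numbers are shared between the groups. The deviations of same-numbered libraries correlated at -0.03, 0.11 and 0.07 for replicates 1, 2 and 3, not all over 0.1. Tubastatin A replicates 2 and 3 correlated best with their own number, and replicate 1 did not. The numbers were not taken to pair the libraries. A replicate block gave 4375 genes (2306 higher, 2069 lower), 4437 with replicates 1 to 3 alone, and 3956 with the GC content and length correction, of which 1954 higher. HDAC8 changed sign to 0.0689 with all 6 groups in one fit, 0.12 without a filter on low counts, 0.30 scaled to the total count, 0.11 without KDAC6H611A replicate 2 and 0.02 without Tubastatin A replicate 1 (range -0.12 to 0.11 without 1 library), and ATAT1 to 0.0267 with the GC correction, 0.004 with all groups, 0.0646 without a filter, 0.23 on the total count and 0.17 without KDAC6H611A replicate 2 (range -0.17 to 0.17). The medians of deacetylases (-0.0008, upper quartile), lysine acetyltransferases (0.15), DNA replication (0.16, and 0.0166 without a filter) and p53 targets (0.0725) changed sign, on the total count unless stated. The cause was not tested. Of 122 named genes called, 90 kept their call under every alternative run and 32 lost it under at least 1, among them MT-CO1, MT-ND4, MT-ND5, PRDX2, CKS2, FEN1 and BST2, and none changed sign. HDAC2, DYNC1I2, DNAJB4, HSP90B1 and RPS27 were among those that lost it with the GC content and length correction. Of the named genes not called, HDAC6, CTTN, TUBA1A and TUBA1C were called under at least 1 alternative. Genes under 0.53 CPM in KDAC6H611A replicate 2, which has the smallest TMM-scaled size, had under 3 counts there.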
